A study of Homo sapiens with 4 samples.

Results

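The enzymes that write and erase N6-methyladenosine (m6A) on RNA are described here transcript by transcript. The members are 10 genes given by their symbols, VIRMA, METTL3, METTL14, METTL16, WTAP, RBM15, RBM15B, ZC3H13, FTO and ALKBH5. They were chosen with earlier results of these data known. Every annotated transcript listed under those symbols was taken. The members make up 10 of the 13036 listed genes and 29 of the 38510 listed transcripts. HCCLM3, a human hepatoma cell line, had been infected with a lentivirus, carrying a short hairpin RNA directed at KIAA1429 (shKIAA1429) or a control one (shCtrl), and 2 libraries of each kind were sequenced. KIAA1429 is the older name of VIRMA. The hairpin against it carries 1 target sequence, that of the first of the study's small interfering RNAs, so no second hairpin was available to compare. The labels do not say whether the 2 libraries of a group came from separate cultures, and the p-values therefore measure only the spread between these libraries, which may be technical.

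m6A is made on nascent RNA by a complex in which METTL3 carries the methyltransferase activity and METTL14 is its structural partner that helps to hold the RNA. A second set of proteins, WTAP, VIRMA, ZC3H13, RBM15 and RBM15B, joins this pair, places it in the nucleus and guides it to its sites. METTL16 is a separate methyltransferase with few known targets, among them U6 RNA and the messenger RNA of an S-adenosylmethionine synthetase. FTO and ALKBH5 are iron-dependent dioxygenases that take the methyl group off again.

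Each value is an FPKM, the number of fragments assigned to a transcript divided by the transcript's length and by the fragments of the whole library, and a gene's level is the sum over its listed transcripts. Because FPKM is per length, levels can be set side by side between genes. The summed FPKM of all listed transcripts lay between 370253.5 and 390224.4 in the 4 libraries, the read depth is unknown, and no counting interval could be given. Of the markers used to check the cell line, 3 of 5 epithelial genes were listed (KRT8, KRT18 and KRT19), with summed levels of 2439.5 to 2510.8 FPKM in shCtrl and 2601.7 to 2664.0 in shKIAA1429. EPCAM and CDH1 had no transcript among those analysed here. SERPINA1 was the 1 of 11 hepatocyte genes listed, at 3.34 to 5.63 FPKM, and the other 10, with the defining markers ALB, AFP and HNF4A among them, had no transcript among those analysed here. The 3 of 4 fibroblast genes listed summed to 60.8 to 66.5 FPKM in shCtrl and 68.7 to 69.3 in shKIAA1429, the 2 of 4 leukocyte genes to 48.4 to 56.3 and 46.7 to 55.5, and none of 3 endothelial genes was listed. The summed epithelial and fibroblast levels did not overlap between the groups. KRT19 accounts for the epithelial gap, at 364 and 350 FPKM in shCtrl against 461 and 458 in shKIAA1429, while KRT8 and KRT18 overlapped, and of the fibroblast genes COL3A1 alone was higher in both (61.9 and 55.8 against 63.6 and 62.2), with COL1A1 and DCN overlapping. Their part in the results below was not tested.

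Of the 10 genes, ALKBH5, RBM15B and WTAP stood highest and METTL14 lowest in every library. Placed by their shCtrl mean among the 11657 genes tested, ALKBH5 was above 85.7% of them, RBM15B above 76.8% and WTAP above 76.0%. RBM15 (63.4%), VIRMA (62.0%) and ZC3H13 (58.2%) followed. METTL3, the catalytic subunit, was above 33.8% of the genes tested, FTO above 33.1%, METTL16 above 26.0% and METTL14 above 7.5%. Taken over all 4 libraries, 4 steps in this order were free of overlap: ALKBH5 above RBM15B, WTAP above RBM15, ZC3H13 above METTL3, and METTL16 above METTL14. The remaining neighbours, RBM15B and WTAP, RBM15 and VIRMA, VIRMA and ZC3H13, METTL3 and FTO, and FTO and METTL16, had overlapping ranges. The catalytic pair was thus expressed below each of the 5 proteins that join it, in all 4 libraries.

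**Figure D1:**
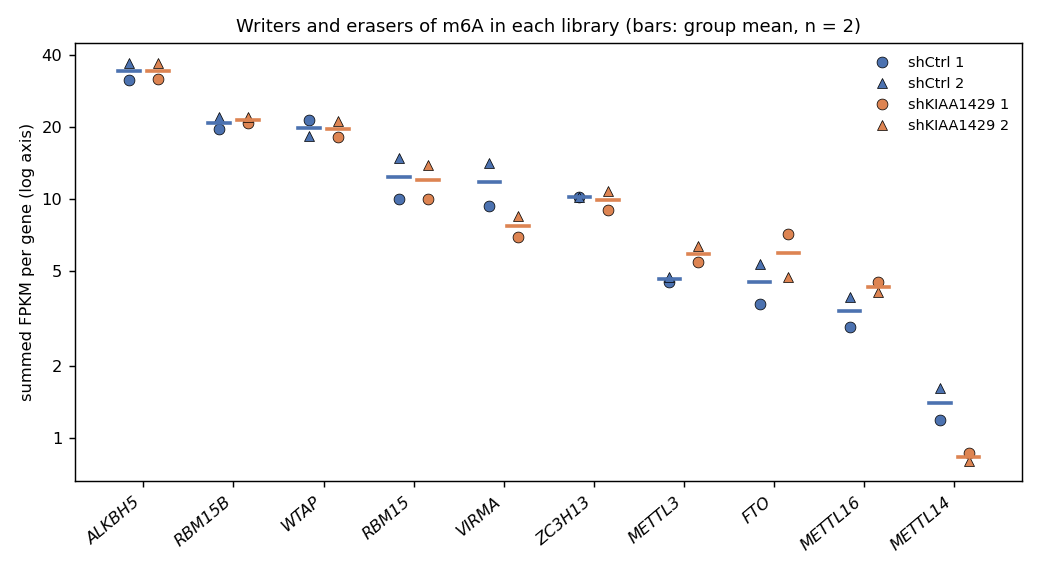
Summed FPKM of each gene (log axis) in the 4 libraries, with shCtrl in blue, shKIAA1429 in orange, circles for replicate 1, triangles for replicate 2 and a bar for the group mean (n = 2). ALKBH5 sits between 31.5 and 37.2 and METTL14 between 0.797 and 1.61, and the groups are apart for VIRMA, METTL14, METTL3 and METTL16 alone.

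The question put to these libraries is what changes when KIAA1429 is silenced, so the targeted gene was examined first. VIRMA (chr8:95499921-95565757, minus strand, GRCh37), the scaffold of the regulatory proteins, was at 9.37 and 14.1 FPKM in the shCtrl libraries and 6.9 and 8.52 in shKIAA1429. Both shKIAA1429 libraries were below both shCtrl libraries, but shKIAA1429 replicate 2 was within 1 FPKM of shCtrl replicate 1. The means were 11.8 ± 3.37 and 7.71 ± 1.15 FPKM (SD, n = 2), so that 65.6% of the shCtrl level was left. All fold changes are differences of log2(FPKM + 1) between the group means, a scale on which weakly expressed genes appear to change less than they do. For VIRMA the difference was -0.53 (SE 0.24, 95% interval -1.15 to 0.09, limma, adjusted p = 0.917). An exact two-sided permutation test over the 4 libraries gave p = 0.333, the smallest value that its 6 arrangements allow. The size of the fall depended on shCtrl replicate 2: it was -0.26 without that library and -0.80 without shCtrl replicate 1. In bulk RNA, fewer cells that carry a transcript and less of it per cell cannot be told apart.

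Transcripts of VIRMA differed more between replicate numbers than between groups. VIRMA-201, with 24 exons and a protein of 1812 residues, was at 5.16 and 3.44 FPKM with shCtrl and at 3.89 and 2.08 in shKIAA1429. VIRMA-202, a shorter form of 13 exons and 1147 residues, was at 3.86 and 10.7 FPKM in shCtrl, against 1.92 and 6.44 in shKIAA1429. VIRMA-204, which has no annotated coding sequence, was at 0.352 and 1.08 FPKM in both replicates 1 and was listed at 0 in both replicates 2. As a result, VIRMA-201 made up 55.1% and 56.4% of the gene in replicates 1 of shCtrl and shKIAA1429, and 24.3% and 24.5% in replicates 2. The group difference in this share was 0.756 percentage points (95% interval -52.5 to 54). In the GENCODE 44 models VIRMA-202 has 512 bases, 13% of its length, that no other listed VIRMA transcript holds, and VIRMA-204 has none. These levels and shares therefore depend on how reads of shared bases were divided, which is not given in the sources used here. Within each replicate number both coding transcripts were lower in shKIAA1429, with log2 fold changes of -0.43 for VIRMA-201 (95% interval -1.41 to 0.55) and -0.69 for VIRMA-202 (-2.66 to 1.28). Leaving out 1 library at a time moved VIRMA-201 between -0.76 (shKIAA1429 replicate 1 left out) and -0.10 (shKIAA1429 replicate 2), with -0.19 without shCtrl replicate 1 and -0.66 without shCtrl replicate 2. VIRMA-202 moved between -1.37 (shKIAA1429 replicate 2 left out) and -0.02 (shKIAA1429 replicate 1), with -1.33 and -0.06 when shCtrl replicates 1 and 2 were left out.

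The target of the hairpin was looked for in these transcripts, since a form that lacks it would escape. All 3 listed VIRMA transcripts hold the 19-base site once. It starts at base 312 of the 6478 bases of VIRMA-201 and at base 372 of the 3924 of VIRMA-202, in exon 4 of both and inside the coding sequence. In VIRMA-204 it starts at base 186 of 460, in exon 3.

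**Figure D2:**
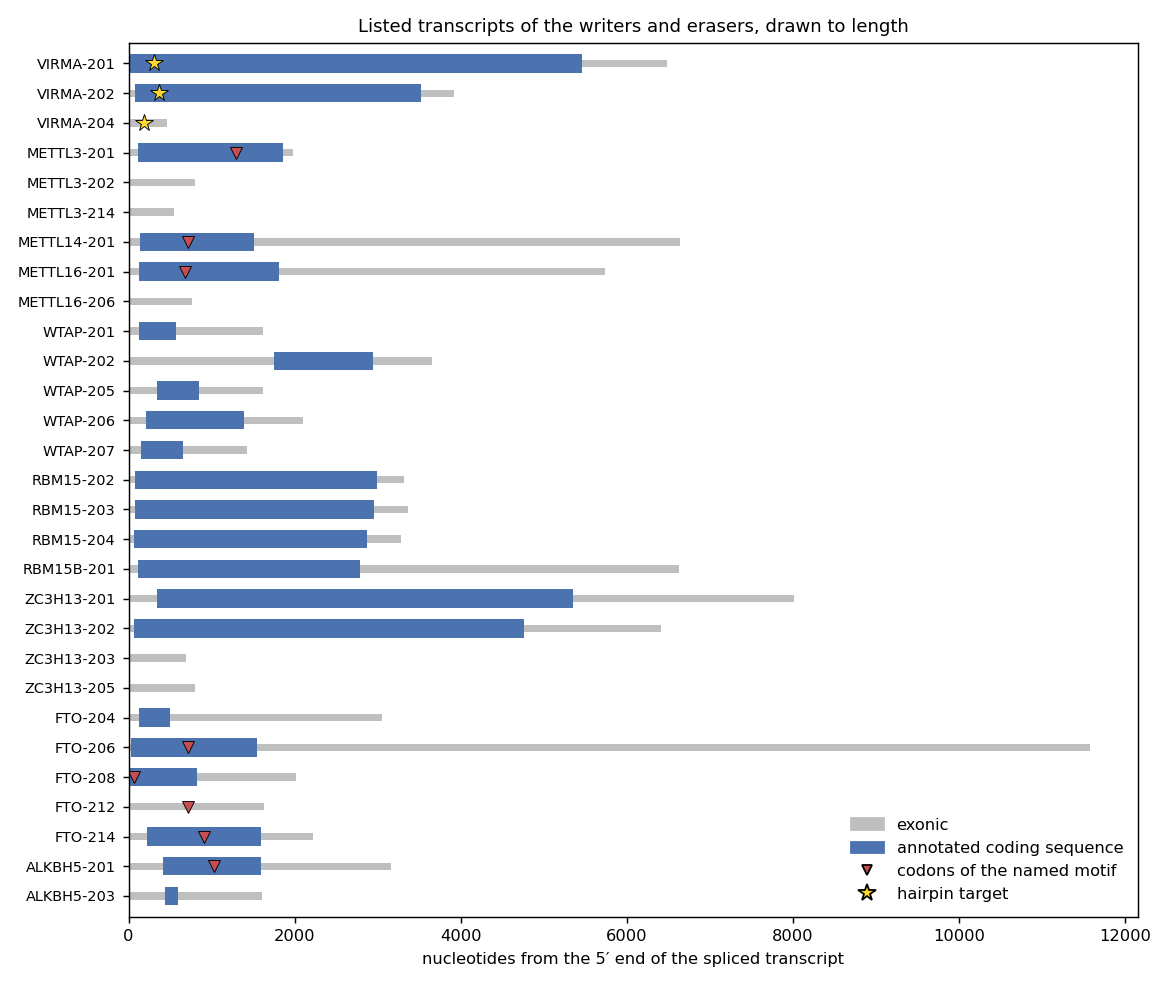
The 29 listed transcripts drawn to length in nucleotides from the 5′ end of the spliced RNA, with exonic sequence in grey, annotated coding sequence in blue, the codons of the motifs named in the text as red triangles and the hairpin target as yellow stars. The hairpin target lies in all 3 VIRMA transcripts, and the motif lies within the coding sequence of 3 of the 5 FTO transcripts.

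In the catalytic pair, METTL3 was higher and METTL14 lower in shKIAA1429, and neither difference passed the test. The active site of METTL3 holds the residues DPPW, and METTL14 has EPPL at the matching place, which does not bind the methyl donor. Their codons, found by translating the coding sequence, are shown in capitals with 30 bases on each side, as they separate the listed transcripts whose coding sequence includes this site from those without it. The METTL3 codons begin at residue 395 of 580, and the 72 bases shown, flanks included, are chr14:21968717-21968788 (GRCh37, minus strand). Those of METTL14 begin at residue 192 of 456, and the bases shown are chr4:119618377-119618448 (GRCh37, plus strand).
METTL3-201: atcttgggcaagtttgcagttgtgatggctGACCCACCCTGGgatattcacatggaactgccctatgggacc
METTL14-201: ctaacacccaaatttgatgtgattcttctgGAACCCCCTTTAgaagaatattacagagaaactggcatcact

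METTL3 (chr14:21966282-21979517, minus strand) was at 4.5 and 4.71 FPKM in the shCtrl libraries and 5.42 and 6.34 in shKIAA1429. The groups did not overlap, and the shKIAA1429 mean was 128% of the shCtrl mean, with a log2 fold change of 0.29 (SE 0.16, 95% interval -0.11 to 0.70, limma, adjusted p = 0.941). Against a rise of 1.28 FPKM in the mean of the gene, METTL3-201, the only listed METTL3 transcript with a coding sequence, rose by 1.6 FPKM. It was at 3.75 and 3.25 FPKM with shCtrl and at 4.44 and 5.77 in shKIAA1429, again without overlap (log2 fold change 0.43, SE 0.22, limma, adjusted p = 0.952, and 0.28 without shKIAA1429 replicate 2). METTL3-202 and METTL3-214, short RNAs of 802 and 545 bases that lack the DPPW codons, stayed under 1 FPKM each. Together they gave 0.746 and 1.46 FPKM in shCtrl and 0.979 and 0.575 in shKIAA1429, which overlap. The share of METTL3-201 in the gene accordingly ran from 69.0% in shCtrl replicate 2 to 90.9% in shKIAA1429 replicate 2. METTL3 shares 345 of its 2893 exonic bases with TOX4 on the other strand, and reads from the overlap may count for either gene.

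METTL14 (chr4:119606523-119636588, plus strand) has 1 listed transcript of 11 exons and was the least abundant member. Its levels were 1.19 and 1.61 FPKM in shCtrl and 0.867 and 0.797 in shKIAA1429. The groups did not overlap, and 59.2% of the shCtrl mean was left, with a log2 fold change of -0.39 (SE 0.18, 95% interval -0.84 to 0.07, limma, adjusted p = 0.917). Without shCtrl replicate 2 the change was -0.26, and with a pseudocount of 0.1 it was -0.68. The ratio of METTL3 to METTL14, both per length, was 3.76 and 2.92 in shCtrl and 6.25 and 7.96 in shKIAA1429, so it was higher in both shKIAA1429 libraries. This ratio was formed after the levels were seen and carries no test. Its divisor, METTL14, was under 1 FPKM in both shKIAA1429 libraries, so the ratios there rest on low values.

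WTAP (chr6:160146617-160177351, plus strand), the protein that brings METTL3 and METTL14 to nuclear speckles, had almost the same level in both groups, at 21.4 and 18.4 FPKM in shCtrl and 18.2 and 21.2 in shKIAA1429. The difference was -0.01 on the log2 scale (95% interval -0.43 to 0.40). Its 5 transcripts encode 3 proteins that share their first 150 residues, of 396 residues (WTAP-202 and WTAP-206), 170 (WTAP-205 and WTAP-207) and 151 (WTAP-201). The point at which they part is shown with the last 30 shared coding bases in lower case and the coding bases that follow, up to 30 of them, in capitals (chromosome 6, GRCh37, plus strand).
WTAP-206: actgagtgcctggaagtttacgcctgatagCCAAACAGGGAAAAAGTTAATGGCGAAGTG
WTAP-205: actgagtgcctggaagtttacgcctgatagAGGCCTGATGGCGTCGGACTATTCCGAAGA
WTAP-201: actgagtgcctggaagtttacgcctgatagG

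WTAP-201, the form that ends 1 residue after this point, was the most abundant in every library. It was at 13.5 and 11.3 FPKM in shCtrl, against 11.6 and 12.2 in shKIAA1429, and held 57.4% to 63.7% of the gene. The 2 transcripts for the 396-residue protein moved in opposite ways from library to library. WTAP-202 was at 0.821 and 4.68 FPKM in the shCtrl libraries and 2.12 and 0.763 in shKIAA1429, whereas WTAP-206 was at 5.69 and 1.08 and then at 3.49 and 6.17. Each alone spanned a wide range, 6.13-fold for WTAP-202 and 5.71-fold for WTAP-206 between the lowest and the highest library, and both ranges overlap between the groups. Their sum was steady at 6.51 and 5.76 FPKM in shCtrl and 5.61 and 6.93 in shKIAA1429, a 1.24-fold range, and 30.4% to 32.7% of the gene. WTAP-206 has 60 bases, 2.85% of its length, that no other listed WTAP transcript holds, and WTAP-205 has none. How reads of shared bases were divided among the transcripts is not given in the sources used here. WTAP shares 437 of its 4906 exonic bases with SOD2 on the other strand.

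RBM15 and RBM15B are RNA-binding paralogs that recruit the complex to its sites, and the groups overlapped for both gene sums. How reads that match both were counted is not given in the sources used here. RBM15 (chr1:110881945-110889299, plus strand) was at 10 and 14.8 FPKM with shCtrl and at 10 and 13.9 in shKIAA1429. Replicate 2 was higher in both groups, and the log2 fold change was -0.04 (95% interval -0.71 to 0.62). RBM15-203, a transcript of 1 exon for 957 residues, held 64.7% to 66.1% of it in the 4 libraries, and RBM15-202 and RBM15-204 stayed at 1.12 to 2.3 and 2.0 to 3.48 FPKM. RBM15B (chr3:51428699-51435339, plus strand), 1 transcript of 1 exon for 890 residues, was at 19.6 and 22.0 FPKM in shCtrl, against 20.8 and 22.1 in shKIAA1429, with a log2 fold change of 0.04 (95% interval -0.32 to 0.41). It was 1.49 to 2.09 times as abundant as RBM15 in the same library. RBM15B shares 1325 of its 6624 bases with DCAF1 on the other strand.

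ZC3H13 (chr13:46528600-46626894, minus strand), a zinc finger protein that keeps the regulatory proteins in the nucleus, was at 10.2 FPKM in both shCtrl libraries and at 8.97 and 10.8 in shKIAA1429. The shKIAA1429 libraries lay on either side of the shCtrl value, with a log2 fold change of -0.05 (95% interval -0.45 to 0.36). ZC3H13-201, for 1668 residues, made up 54.3% to 62.0% of the gene and varied only 1.13-fold, between 5.56 and 6.29 FPKM. ZC3H13-202, for 1564 residues, was at 1.57 and 1.56 FPKM in the shCtrl libraries and 1.66 and 1.97 in shKIAA1429, without overlap (log2 fold change 0.13, 95% interval -0.42 to 0.68). The change was 0.05 without shKIAA1429 replicate 2 and 0.21 without shKIAA1429 replicate 1. Its share was 15.4% and 15.2% in shCtrl and 18.5% and 18.3% in shKIAA1429. ZC3H13-203 and ZC3H13-205, of 695 and 795 bases with no coding sequence in GENCODE 44, summed to 1.75 to 2.95 FPKM.

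METTL16 (chr17:2319343-2415180, minus strand) was at 2.91 and 3.89 FPKM with shCtrl and at 4.48 and 4.09 in shKIAA1429. Both shKIAA1429 libraries were above both shCtrl libraries, with a log2 fold change of 0.27 (SE 0.18, 95% interval -0.20 to 0.74, limma, adjusted p = 0.96), and leaving out shCtrl replicate 1 gave 0.11 and leaving out replicate 2 gave 0.43. METTL16-201 encodes the enzyme of 562 residues, whose catalytic NPPF begins at residue 184. Its codons are shown in capitals with 30 bases on each side, spliced across an intron, so that the run covers the ends of 2 exons within chr17:2367639-2371120 (GRCh37, minus strand).
METTL16-201: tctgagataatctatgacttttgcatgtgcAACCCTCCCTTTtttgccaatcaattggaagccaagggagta

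METTL16-201 was at 1.63 and 2.99 FPKM in shCtrl, against 4.19 and 3.43 in shKIAA1429, for a log2 fold change of 0.57 (SE 0.30, 95% interval -0.27 to 1.41, limma, adjusted p = 0.966). Leaving out shCtrl replicate 1 gave 0.27, and leaving out shCtrl replicate 2 gave 0.87. METTL16-206, a 2-exon RNA of 759 bases from the 3′ end of the gene that lacks the NPPF codons, went the other way, at 1.29 and 0.907 FPKM in the shCtrl libraries and 0.288 and 0.666 in shKIAA1429. It reached 1 FPKM in 1 library only and was not tested. The share of METTL16-201 was thus 55.8% and 76.7% in shCtrl and 93.6% and 83.7% in shKIAA1429. The groups did not overlap, but the difference of 22.4 percentage points had an interval of -6.24 to 51 (limma, adjusted p = 0.892), and it was 11.9 points without shCtrl replicate 1. In the GENCODE 44 models METTL16-206 has no base that METTL16-201 lacks, but the files end METTL16-201 at another position, 2319370 against 2319343 for METTL16-206, so the models behind the FPKM may differ there.

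ALKBH5 was carried by 1 transcript in every library, whereas the transcripts of FTO differed in their mixture from library to library. Both erasers bind iron through an HxD motif, whose codons are shown in capitals with 30 bases on each side. In FTO they begin at residue 231 of the 505 of FTO-206, and the 69 bases shown, flanks included, are chr16:53860313-53860381 (GRCh37, plus strand). In ALKBH5 they begin at residue 204 of 394, and the bases shown are chr17:18088137-18088205 (GRCh37, plus strand).
FTO-206: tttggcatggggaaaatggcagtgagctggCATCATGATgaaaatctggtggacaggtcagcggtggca
ALKBH5-201: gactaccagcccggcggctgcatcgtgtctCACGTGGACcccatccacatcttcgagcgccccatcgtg

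ALKBH5 (chr17:18086392-18113268, plus strand) was at 31.5 and 36.9 FPKM with shCtrl and at 31.7 and 37.2 in shKIAA1429. The 2 groups had nearly the same low and the same high value, with a log2 fold change of 0.01 (95% interval -0.40 to 0.42). ALKBH5-201, which holds the HxD codons, carried 97.0% to 99.2% of it. ALKBH5-203, for 53 residues without them, was at 0.505 and 0.307 FPKM in shCtrl, against 0.943 and 0.864 in shKIAA1429, higher in both but under 1 FPKM in every library and not tested.

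FTO (chr16:53737875-54155853, plus strand) was at 3.62 and 5.33 FPKM in the shCtrl libraries and 7.12 and 4.73 in shKIAA1429. The groups overlapped, and the log2 fold change was 0.34 (SE 0.26, 95% interval -0.34 to 1.01, limma, adjusted p = 0.969). It was 0.08 without shKIAA1429 replicate 1, 0.11 without shCtrl replicate 1, 0.56 without shCtrl replicate 2 and 0.59 without shKIAA1429 replicate 2. The high value of shKIAA1429 replicate 1 came from FTO-212, an RNA of 1636 bases with no annotated coding sequence. FTO-212 was at 3.26 FPKM in that library and at 0.0539, 0.0601 and 0.257 in shCtrl replicates 1 and 2 and shKIAA1429 replicate 2, so it made up 45.8% of FTO there and 1.13% to 5.43% elsewhere. In the GENCODE 44 models it has 245 bases, 15% of its length, that no other listed FTO transcript holds. How reads of shared bases were divided among the FTO transcripts is not given in the sources used here. Summed over the protein-coding transcripts alone, the FTO fold change was -0.05, the opposite direction.

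Among the coding transcripts of FTO, 2 were lower in both shKIAA1429 libraries. FTO-204, a 3-exon form for 127 residues from the end of the gene that lacks the HxD codons, was at 1.26 and 1.14 FPKM with shCtrl and at 0.363 and 0.0275 in shKIAA1429. This was the largest separation of any tested member transcript relative to its error, with a log2 fold change of -0.89 (SE 0.23, 95% interval -1.55 to -0.23, limma, unadjusted p = 0.0204, adjusted p = 0.589). With a pseudocount of 0.1 in place of 1 the change was -2.41, and the unadjusted p rose to 0.0757. FTO-204 reached 1 FPKM only in the shCtrl libraries, so the group where it was high let it into the test. A filter on the mean level left it out. Its share of the gene was 34.7% and 21.3% in shCtrl and 5.1% and 0.581% in shKIAA1429, a difference of -25.2 percentage points (95% interval -43.9 to -6.46, limma, adjusted p = 0.62). Only the shCtrl mean of this share was over the 5% filter. In the GENCODE 44 models FTO-204 has 229 bases, 7.49% of its length, that no other listed FTO transcript holds, and how shared reads were divided is not given. FTO-206, the full-length form of 505 residues, was at 1.53 and 1.35 FPKM in shCtrl, against 1.14 and 0.756 in shKIAA1429 (log2 fold change -0.33, SE 0.21, limma, adjusted p = 0.973), and without shKIAA1429 replicate 2 the change was -0.19. Neither passed the threshold over all transcripts tested.

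FTO-214 shares its first 455 residues with FTO-206, including the HxD motif, and then ends after 2 more, where FTO-206 goes on for 50. The last 30 shared coding bases are in lower case, and the capitals are the coding bases after them, up to 30 (chromosome 16, GRCh37, plus strand).
FTO-206: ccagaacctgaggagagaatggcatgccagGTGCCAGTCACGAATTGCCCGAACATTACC
FTO-214: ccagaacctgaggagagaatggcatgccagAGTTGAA

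FTO-214 was at 0.0829 and 2.41 FPKM in the shCtrl libraries and 2.23 and 2.56 in shKIAA1429. Its low value was that of shCtrl replicate 1, and the log2 fold change of 0.82 (95% interval -0.98 to 2.61, limma, adjusted p = 0.973) became -0.01 without that library, 1.65 without shCtrl replicate 2 and 1.88 with a pseudocount of 0.1. FTO-208, for 274 residues with the motif near its start, was at 0.693 and 0.374 FPKM with shCtrl and at 0.127 and 1.13 in shKIAA1429. The 3 forms with the HxD codons in their coding sequence (FTO-206, FTO-208 and FTO-214) summed to 2.31 and 4.14 FPKM in shCtrl and 3.49 and 4.45 in shKIAA1429, which overlap. ALKBH5 was 4.46 to 8.71 times as abundant as FTO in the same library.

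**Figure D3:**
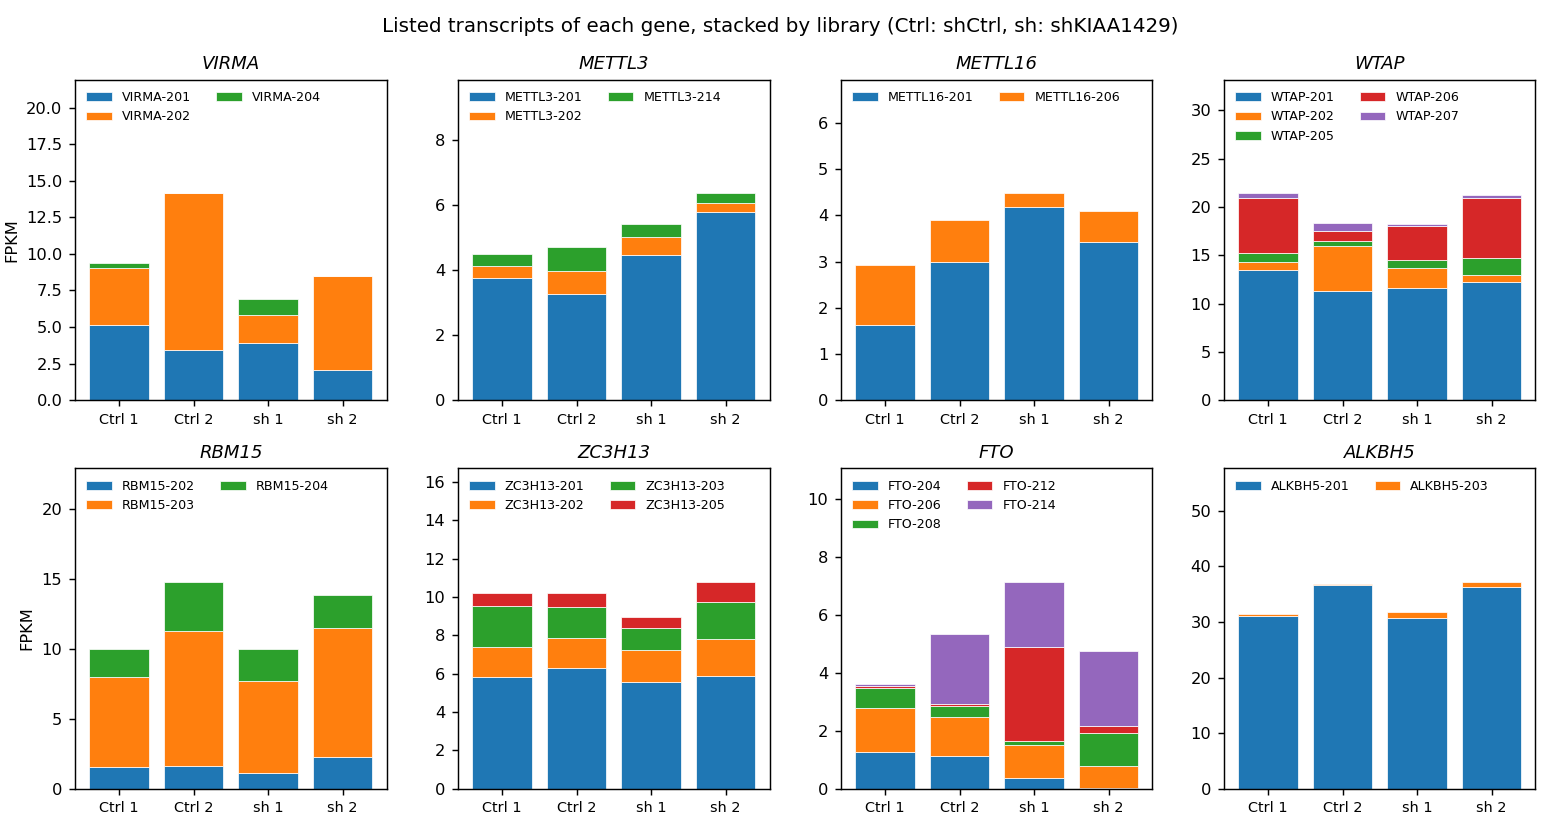
FPKM of the listed transcripts of the 8 members with more than 1, stacked for shCtrl replicates 1 and 2 (Ctrl 1, Ctrl 2) and shKIAA1429 replicates 1 and 2 (sh 1, sh 2), each gene on its own axis from 0. WTAP-202 and WTAP-206 trade places within a steady total, VIRMA-202 is larger in both replicates 2, and FTO-212 reaches 3.26 FPKM in shKIAA1429 replicate 1 alone.

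Counted over the members, no difference was called. None of the 10 gene sums was called at an adjusted p under 0.05 with an absolute log2 fold change over 1, and none of 11657 genes was (0%), their smallest adjusted p being 0.238. At an unadjusted p under 0.05 none of the 10 stood, against 5.63% of all genes. Of the 10 members, 2 (VIRMA and METTL14) were lower in both shKIAA1429 libraries than in both shCtrl libraries, against 16.7% of all genes, and 2 (METTL3 and METTL16) were higher in both, against 16.9%. METTL14 reached 1 FPKM only in the shCtrl libraries, and its levels there alone let it into the test. The median absolute log2 fold change was 0.16 over the members and 0.14 over all genes tested, with 5 members higher and 5 lower. The adjusted p-values of the members ran from 0.917 to 0.999 (limma). A p that misses the threshold does not show equal levels: the intervals of WTAP, RBM15B, ZC3H13 and ALKBH5 stayed within 0.45 of 0 on the log2 scale, while that of VIRMA reached -1.15 and that of FTO 1.01.

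At the median, transcripts varied more between libraries than gene sums did. Between the lowest and the highest library the median member gene varied 1.45-fold and the median tested member transcript 2.03-fold, while all genes tested varied 1.41-fold and all transcripts tested 1.82-fold, leaving out those with a library at 0. Of the 29 member transcripts, 19 reached 1 FPKM in at least 2 libraries and were tested. None was called, nor was any of 24996 transcripts (0%), and 1 (FTO-204) had an unadjusted p under 0.05, against 6.28% of all. The groups were apart for 3 lower (METTL14-201, FTO-204 and FTO-206) and 3 higher (METTL3-201, METTL16-201 and ZC3H13-202) of the 19, against 16.8% and 16.7% of all transcripts. METTL14-201 and FTO-204 reached 1 FPKM only in the shCtrl libraries, so their levels there alone let them into the test and into the lower count. The median absolute log2 fold change was 0.33 over the 19 and 0.21 over all tested.

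For the transcript shares, 23 of the member transcripts entered the test. None was called, nor was any of 25170 shares (0%), the smallest adjusted p being 0.139. FTO-204 alone had an unadjusted p under 0.05, against 6.18% of all shares. The groups were apart for 5 lower shares (METTL3-214, METTL16-206, FTO-204, FTO-206 and ALKBH5-201), against 17.5%, and for 4 higher shares (METTL16-201, RBM15-203, ZC3H13-202 and FTO-212), against 17.6%. FTO-204 had a mean share of 28% in shCtrl and 2.84% in shKIAA1429, so shCtrl alone brought it over the 5% filter. FTO-212, at 1.31% and 25.6%, passed that filter through shKIAA1429 alone. The shares of a gene add to 100%, so METTL16-201 and METTL16-206 are 1 observation. For the same reason the counted shares of FTO-204, FTO-206 and FTO-212 are not independent of each other.

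**Figure D4:**
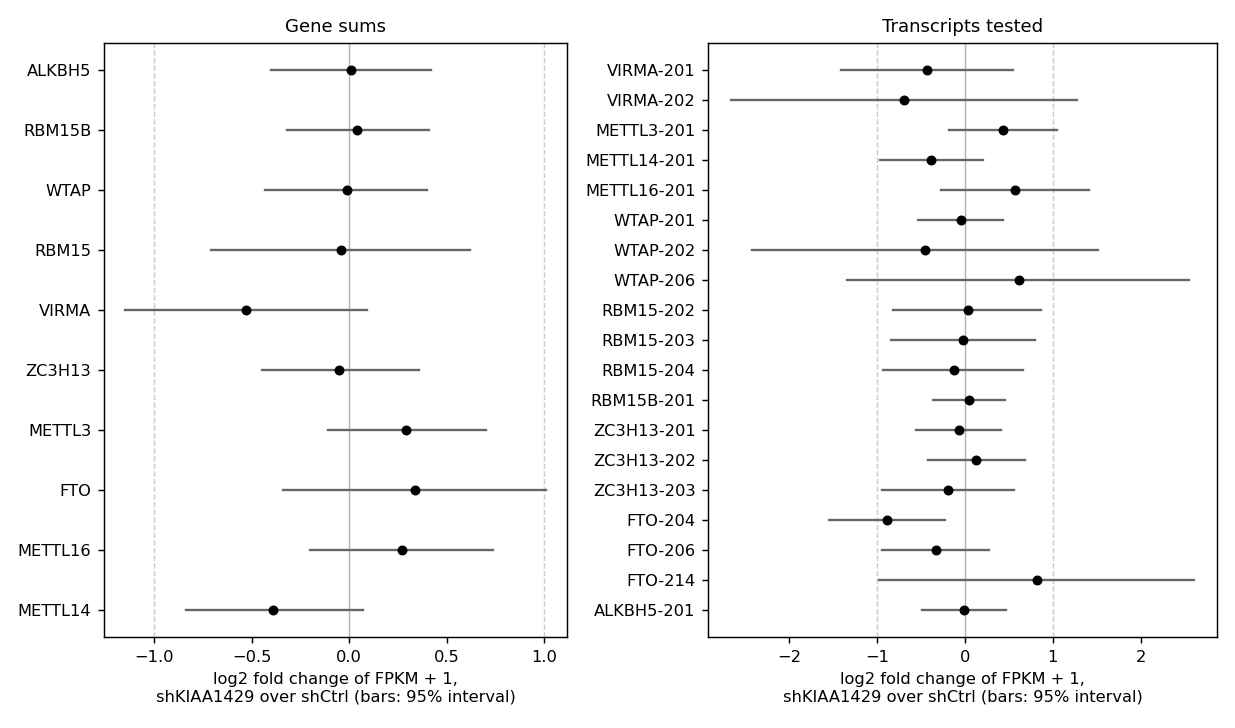
Log2 fold change of FPKM + 1, shKIAA1429 over shCtrl, with its 95% interval from limma (bars), for the 10 gene sums (left) and the 19 transcripts tested (right), with dashed lines at a change of 1 either way. Of the intervals, only that of FTO-204 (-1.55 to -0.23) leaves out 0, and VIRMA-202, WTAP-202, WTAP-206 and FTO-214 have the widest. FTO-204 reached 1 FPKM only in the shCtrl libraries, which let it into the test.

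Genes that work beside the writers and erasers were taken from lists of known partners. The 6 other methyltransferase proteins (among them CBLL1, a member of the same complex, and METTL5 with its partner TRMT112, which methylate ribosomal RNA) had log2 fold changes of -0.04 to 0.17, and none of them was apart between the groups. Of the 13 readers, proteins that bind m6A or RNA opened by it, 3 were lower (YTHDC1, FMR1 and YTHDF3) and 1 higher (HNRNPC) without overlap, against 16.7% and 16.9% of all genes, and none was called. YTHDF3, a cytoplasmic reader, was at 10.9 and 9.94 FPKM in shCtrl, against 5.33 and 2.38 in shKIAA1429 (log2 fold change -1.30, SE 0.33, limma, unadjusted p = 0.0109, adjusted p = 0.665). The 7 other AlkB dioxygenases ranged from -0.47 to 0.33, with 2 lower (ALKBH1 and ALKBH2) and 2 higher (ALKBH3 and ALKBH7) without overlap, against the same 16.7% and 16.9%. The 3 genes that supply or clear the methyl donor (MAT2A, MAT2B and AHCY) ranged from -0.25 for MAT2A to 0.17 for AHCY, both without overlap, against these same shares, and the polyadenylation factors NUDT21 and CPSF6, which bind the writer complex, from -0.13 to 0.12. The median over the readers was -0.09 and that over the AlkB genes -0.04, beside -0.01 over all genes tested. The genes of these lists that are given with values or named for their groups, YTHDF3 included, are named because of their values.

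The transcripts of the members were also searched for GGAC, the 4-letter core of the best-known m6A context, on the sense strand. It occurred in all 29, with a median of 4.05 per kilobase, and in 97.1% of the 37441 listed transcripts matched to the annotation, with a median of 3.98. A match is a description of the letters and not a methylated site.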

How the data were processed

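RNA-seq of 4 HCCLM3 libraries (2 shCtrl, 2 shKIAA1429, grouped by title) was analysed. The authors deposited FPKM per annotated transcript. Their processing notes name hg19 and Bowtie2 2.1.0; the tool that made the FPKM, strand use and the division of shared reads are not given in the sources used here. Every listed transcript reached 0.504 FPKM or more in some library. Positions are those of the files; exons, coding sequences and printed bases come from GENCODE 44 lifted to GRCh37 and its genome, matched by identifier for all 29 transcripts; 9 of them start or end elsewhere in the files, so lengths and unique bases may differ from the models the authors used. The members and lists were chosen with earlier results of these data known, and all members are named.

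FPKM were summed per gene. Genes, and separately transcripts, with at least 1 FPKM in at least 2 libraries were compared on log2(FPKM + 1) with limma 3.58.1 in R 4.3.3 (lmFit, eBayes with trend, two-sided, group only), with Benjamini-Hochberg adjustment over all tested. Shares, in percent of the gene sum, were tested the same way without trend where the mean share was at least 5% and the gene sum at least 1 FPKM in all 4 libraries. Calls needed an absolute log2 fold change over 1 (10 points for shares) at an adjusted p under 0.05. The code of the fits was checked on simulated data with large added changes, which does not show what sizes of change the fits can find here. Alternatives were upper quartile scaling, rescaling outside the most abundant RNAs, 2 other filters, a pseudocount of 0.1, protein-coding transcripts only, fold change alone, an arcsine scale, no minimum share, the replicate block and leaving out each library. Figures were drawn with matplotlib 3.10.9.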

Additional observations from a re-analysis of the deposited data

How the results depend on the processing

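No member was called under any alternative run on all 4 libraries, for gene sums, transcripts or shares. In the limma runs among them no gene, transcript or share was called at all (0%), so these runs do not set the members apart. By fold change alone, 125 of 11657 genes and 1807 of 24996 transcripts passed, and no member did. Apart from the fits that leave out a library, 68 of 70 gene-sum fold changes, 112 of 113 transcript fold changes and all 69 share differences kept their direction. FTO-204 and FTO-214 passed an absolute log2 fold change of 1 with a pseudocount of 0.1, but were not called. ALKBH5 turned to -0.0018 when rescaled outside the most abundant RNAs, ALKBH5-201 to 0.0021 with upper quartile scaling, and FTO to -0.05 over protein-coding transcripts. A pseudocount of 0.1 moved METTL14 to -0.68, FTO-204 to -2.41 (unadjusted p = 0.0757), FTO-206 to -0.58, FTO-214 to 1.88 and ZC3H13-203 to -0.30, and over protein-coding transcripts METTL16 was at 0.57. Other scalings moved the median over all genes by at most 0.012 on the log2 scale.

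Leaving out 1 library at a time moved the VIRMA fold change between -0.80 and -0.26. It turned the direction of these differences, given as the lowest and highest log2 fold change: for gene sums ALKBH5 (-0.1 to 0.12), RBM15 (-0.3 to 0.22), RBM15B (-0.03 to 0.12), WTAP (-0.12 to 0.09), ZC3H13 (-0.17 to 0.07), and for transcripts ALKBH5-201 (-0.13 to 0.1), FTO-214 (-0.01 to 1.65), RBM15-202 (-0.3 to 0.35), RBM15-203 (-0.28 to 0.24), RBM15-204 (-0.42 to 0.16), RBM15B-201 (-0.03 to 0.12), WTAP-201 (-0.17 to 0.06), WTAP-202 (-1.28 to 0.36), WTAP-206 (-0.24 to 1.45), ZC3H13-203 (-0.41 to 0.03). The same held for share differences in percentage points: FTO-208 (-11.3 to 10.8), FTO-214 (-2.48 to 40.4), RBM15-202 (-2.13 to 3.27), RBM15-204 (-4.33 to 1.01), VIRMA-201 (-15.2 to 16.8), VIRMA-202 (-30.5 to 17.1), WTAP-201 (-4.89 to 1.36), WTAP-202 (-17.8 to 3.78), WTAP-206 (-2.45 to 18.3), ZC3H13-201 (-5.09 to 2.54), ZC3H13-205 (-0.192 to 2.74).

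With the replicate number as a replicate block the VIRMA fold change was -0.53 (limma, unadjusted p = 0.0194, adjusted p = 0.42). No member was called, nor was any of the 11657 genes. The labels give the numbers no shared source. Same-numbered libraries deviated together with a correlation of 0.324 over gene sums and 0.0642 over transcripts, across 2 pairs. So few pairs cannot decide whether same-numbered libraries share a source, which was not tested. With 2 libraries a group and no depth, transcripts under 1 FPKM, the division of reads among transcripts that share most of their bases, and reads from genes on the opposite strand limit what the values can show. Dixon's test for an outlying library needs more than 2 libraries a group and was not run.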
